A study of Mus musculus with 6 samples.

Results

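The proteasome is the protease complex that degrades most ubiquitin-tagged proteins, and its genes were examined in mouse ovarian surface epithelial cells given TGFB1. Members were all rows whose symbol has Psm, a letter from a to g and a digit, without processed pseudogenes. Of 35688 rows in the deposited table, 55 matched that pattern, 4 were left out as pseudogenes and a repeated Psmd10 row was merged, leaving 50 genes. RNA was sequenced from m1102, a single line of ovarian surface epithelial cells, which form the layer covering the ovary. Treated cells received TGFB1 at 10 ng/mL for 4 days (3 libraries), and the comparison was with 3 libraries of untreated cells. No day was given for the untreated cells, so a difference in time in culture cannot be told apart from TGFB1. Both groups grew in alpha-MEM with serum, an insulin, transferrin and selenium supplement (ITSS) and epidermal growth factor. Nothing in the labels says that the libraries of a group came from separate cultures, so the p-values measure only the spread among these 6 samples, and that spread may be technical.

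The core particle is a barrel of inner beta rings, which hold the proteolytic subunits Psmb5, Psmb6 and Psmb7, and outer alpha rings, which gate entry. A regulatory particle, with an ATPase base and a lid, recognises ubiquitin-tagged proteins, unfolds them and feeds them into the barrel. Interferon gamma is known to induce the immunoproteasome subunits Psmb8, Psmb9 and Psmb10, which take the places of Psmb5, Psmb6 and Psmb7, together with the PA28 activator made of Psme1 and Psme2. These changes favour peptides suited to presentation on MHC class I.

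Levels are given in TPM, the deposited length-corrected abundance, and differences as log2(TPM + 1) of TGFB1 minus untreated. The limma threshold for a call was an adjusted p of 0.05, with Benjamini-Hochberg adjustment over 12257 genes whose mean reached 1 TPM. The columns hold no read counts, so depth is unknown, and column totals lay between 983434 and 1026702. Along the first principal component of these genes, with 70.7% of the variance, TGFB1 replicate 1 stood apart. It stood at 46.6, the other TGFB1 libraries at 20.2 and 18.1, and untreated libraries between -29.8 and -27.1. Of 10 surface epithelial markers, 7 reached 1 TPM (Krt7, Krt18, Wt1, Upk3b, Msln, Gpm6a and Cdh2), while Krt8, Krt19 and Cdh1 did not. Of those 7, 4 fell (Krt7, Krt18, Upk3b and Gpm6a) and 1 rose (Cdh2). That is 71.4% of the 7, where 30.4% of all tested genes were called. The call on Upk3b was lost when the 1 TPM filter, the intensity trend of the fit or any untreated library was left out (limma adjusted p up to 0.107). The summed level of all 10 was 820.1 to 1138 TPM with TGFB1, against 1649 to 1755 TPM in untreated cells.

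Of the 50 members, 47 passed the filter on low values. Psma8, Psmb8 and Psmb11 did not. After TGFB1, 5 members rose (Psmb2, Psmb5, Psmd1, Psme4 and Psmf1) and 5 fell (Psmb9, Psmb10, Psme1, Psme2 and Psmg4). This was 21.3% of the tested members, where 30.4% of all tested genes were called, 15.8% as higher and 14.6% as lower. The groups did not overlap in 18 of 47 members, or 38.3%, against 49.8% of all genes. The median difference was 0.02 over the members and 0.02 over all tested genes. Of all called genes, 52.0% were higher, and 62.7% were when the libraries were rescaled without mitochondrial and abundant genes. The members that fell were immunoproteasome, PA28 and assembly genes, and 0 constitutive core or regulatory particle genes fell. Psmb10, Psme1, Psme2, Psmg4 and Psmf1 were called in all 16 alternative analyses, and the other 5 were not. Without TGFB1 replicate 1 all 10 kept their call (limma adjusted p up to 0.0443). The count of members that rose was 1 without untreated replicate 3 and 2 to 3 without untreated replicate 1 or 2 or TGFB1 replicate 2 or 3.

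**Figure D1:**
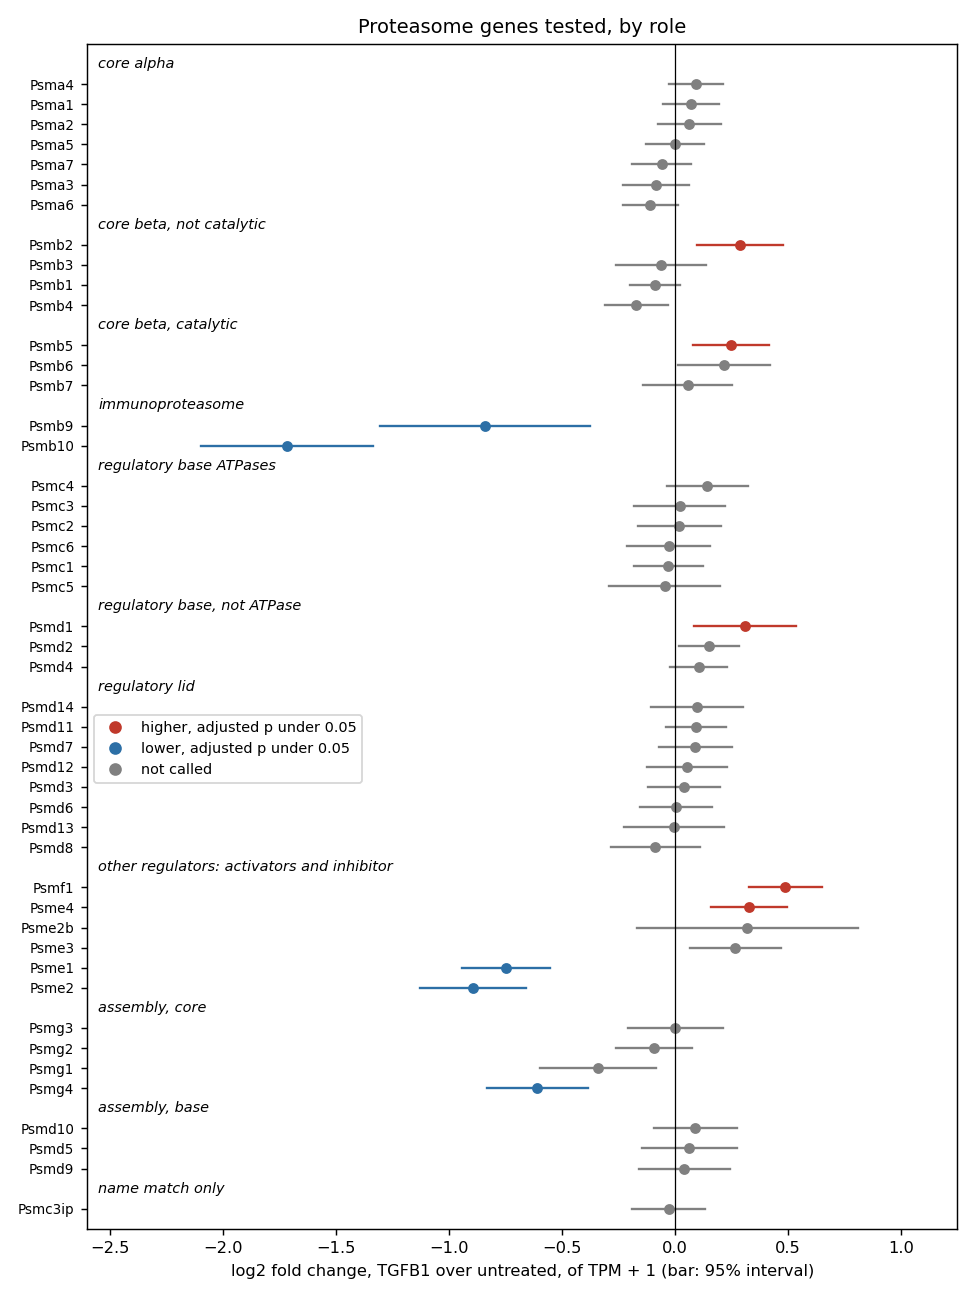
Difference in log2(TPM + 1), TGFB1 minus untreated, for the 47 tested proteasome members grouped by role, with 95% intervals from limma. Psmb10 lies farthest from 0, at -1.72, and Psmf1 is the highest, at 0.49, while core and regulatory particle genes lie between -0.17 and 0.31.

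Psmb10, which replaces the trypsin-like subunit Psmb7 in the immunoproteasome, fell the most of all members. Its level was 31.8, 44.8 and 43.7 TPM in TGFB1 libraries, against 156, 116 and 128 TPM in untreated libraries. Every TGFB1 library was below every untreated one, and TGFB1 replicate 1 was the lowest. The means were 40.1 ± 7.20 TPM with TGFB1 and 134 ± 20.6 TPM in untreated cells (SD, n = 3 each), so the mean fell by 70.0%. The log2 difference was -1.72 (SE 0.16, limma adjusted p = 0.000898), and it stayed between -1.81 and -1.56 when any library was left out. Psmb10 lies at chr8:105935735-105938444 on the minus strand (GRCm38, GENCODE M21). In bulk RNA, fewer cells expressing a gene and less of its RNA per cell cannot be told apart.

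Psmb9, which replaces Psmb6, was lower too, but at a far lower level. It had 1.02, 0.768 and 0.377 TPM in TGFB1 libraries and 2.51, 1.86 and 1.81 TPM in untreated libraries. The groups did not overlap, and again all TGFB1 libraries were the low ones. The difference was -0.84 (SE 0.20, limma adjusted p = 0.0198), on a scale that understates changes at this level, and the ratio of means was 0.350. When any untreated library was left out it was no longer called, with an adjusted p of up to 0.0701. Psmb8, which replaces Psmb5, stayed under the filter, at 0.456, 0.165 and 0.357 TPM with TGFB1 against 0.866, 0.444 and 0.713 TPM in untreated cells. Its groups overlapped, because the lowest untreated library was below the highest TGFB1 library. Psmb11, the catalytic subunit known from thymic cortical epithelium, stayed at or under 0.229 TPM in every library, and Psma8, an alpha subunit known from the testis, was listed at 0 in all of them.

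Of the 3 constitutive catalytic genes, 1 rose and 0 fell. Psmb5, the chymotrypsin-like subunit, had 154, 136 and 139 TPM with TGFB1, against 126, 114 and 119.8 TPM in untreated cells, and every TGFB1 library was above every untreated one. The difference was 0.25 (limma adjusted p = 0.0386). That call was kept in 8 of 16 alternatives, and leaving out any untreated library ended it (adjusted p up to 0.113). Psmb5 shares 71.7% of its 31-base words with other genes, the most with the gene model Gm3375. Reads may therefore be split among them, and the sum of Psmb5 and Gm3375 had a ratio of 1.17. Psmb6, the caspase-like subunit, had 352, 302 and 313 TPM with TGFB1 against 303, 258 and 269 TPM in untreated cells, with overlapping groups and a difference of 0.22 (adjusted p = 0.0967). Psmb7 had 353, 315 and 309 TPM with TGFB1 against 338, 288 and 314 TPM in untreated cells (difference 0.06, adjusted p = 0.638).

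**Figure D2:**
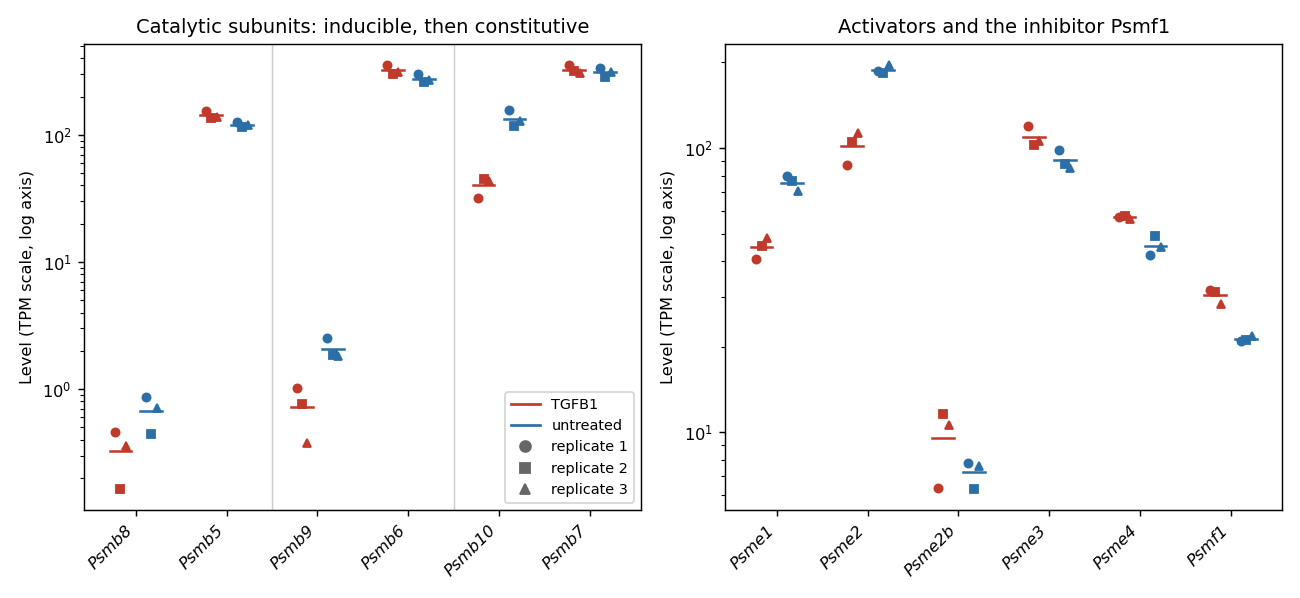
Level in TPM (log axis) in each library, TGFB1 left of untreated, for inducible and constitutive catalytic subunits in pairs and for the genes of the proteasome activators and of the inhibitor Psmf1. Psmb10 lies at 31.8 to 44.8 TPM with TGFB1 and 116 to 156 TPM in untreated cells, while its counterpart Psmb7 overlaps between the groups.

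Of all transcripts for catalytic subunits, the inducible ones made up 3.73%, 5.72% and 5.52% in TGFB1 libraries, against 17.2%, 15.2% and 15.6% in untreated libraries. The shares did not overlap, and averaged 4.99% ± 1.10 with TGFB1 and 16.0% ± 1.05 in untreated cells (SD, n = 3 each), a difference of -11.0 percentage points. Psmb10 carried nearly all of it, the summed inducible level being 33.3, 45.7 and 44.4 TPM with TGFB1 against 159.7, 119 and 130.3 TPM in untreated cells. It made up 11.0% ± 2.40 of Psmb10 plus Psmb7 with TGFB1 and 29.8% ± 1.58 in untreated cells. The other pairs held little of the inducible form in either group. Psmb9 made up 0.121% to 0.289% of Psmb9 plus Psmb6 with TGFB1, against 0.668% to 0.823% in untreated cells. Psmb8 made up 0.121% to 0.295% of Psmb8 plus Psmb5 with TGFB1, against 0.387% to 0.681% in untreated cells. These shares describe RNA and not assembled particles, and were given no test.

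**Figure D3:**
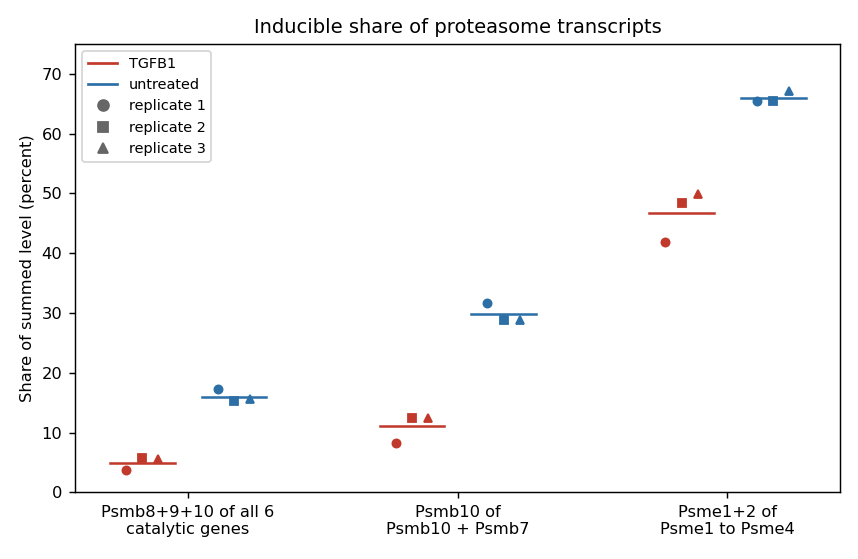
Share in percent, by library, of inducible transcripts among all catalytic subunit transcripts, of Psmb10 in Psmb10 plus Psmb7, and of Psme1 plus Psme2 in Psme1 to Psme4, TGFB1 left of untreated. The inducible share is 3.73% to 5.72% in TGFB1 libraries and 15.2% to 17.2% in untreated libraries.

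Both genes of PA28, the interferon-inducible cap that opens the core particle without ATP, fell. Psme1 (PA28 alpha) had 40.8, 45.1 and 48.2 TPM with TGFB1, against 79.6, 76.2 and 70.8 TPM in untreated cells. Psme2 (PA28 beta) had 87.1, 105 and 113 TPM with TGFB1, against 186, 184 and 195 TPM in untreated cells. For both genes every TGFB1 library was below every untreated one. The difference was -0.75 for Psme1 (SE 0.08, limma adjusted p = 0.00153) and -0.89 for Psme2 (SE 0.10, adjusted p = 0.00157). Psme1 and Psme2 are neighbours on chromosome 14, on opposite strands (chr14:55578123-55581529, plus, and chr14:55587441-55591113, minus), with 5911 bases between them. The level of Psme2 over Psme1 was 2.13 to 2.34 with TGFB1 and 2.33 to 2.76 in untreated cells, with overlapping ranges.

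Psme2 shares 33.5% of its 31-base words with other genes, the most with its close copy Psme2b. Psme2b shares 78.4% of its own words with other genes, so the split between the pair is uncertain. Psme2b had 6.39, 11.6 and 10.6 TPM with TGFB1 against 7.80, 6.34 and 7.59 TPM in untreated cells (difference 0.32, limma adjusted p = 0.280). TGFB1 replicate 1 was the low one, and without it Psme2b was called as higher (0.56, adjusted p = 0.00980). The sum of both genes was 93.5, 116 and 123 TPM with TGFB1 and 194, 190.2 and 203 TPM in untreated cells, a ratio of 0.568.

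Psme4 and Psmf1, which also act at the ends of the core particle, rose. Psme4 (PA200), an activator best known from nuclei and from sperm development, had 57.4, 57.5 and 56.4 TPM with TGFB1 against 42.2, 49.2 and 44.8 TPM in untreated cells. The groups did not overlap, and the difference was 0.33 (SE 0.07, limma adjusted p = 0.0156). It was no longer called without untreated replicate 3 or without TGFB1 replicate 2 (adjusted p up to 0.0630). Psmf1 (PI31), described as an inhibitor of the core particle in vitro, had 31.5, 31.1 and 28.3 TPM with TGFB1 against 21.0, 21.0 and 21.9 TPM in untreated cells. All TGFB1 libraries were above all untreated ones, with a ratio of 1.42 and a difference of 0.49 (SE 0.07, adjusted p = 0.00337). Psme3 (PA28 gamma), the nuclear activator, had 119.6, 102 and 105 TPM with TGFB1 against 98.3, 87.9 and 85.1 TPM in untreated cells. Its groups did not overlap, but the difference of 0.27 missed the threshold (adjusted p = 0.0534). Of the summed level of Psme1 to Psme4, Psme1 and Psme2 made up 46.7% ± 4.21 with TGFB1 and 66.0% ± 1.02 in untreated cells (SD, n = 3 each).

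Few constitutive core and regulatory particle genes were called. Of 14 tested core genes 2 rose and 0 fell, and of 17 regulatory particle genes 1 rose and 0 fell. Calls made up 9.68% of the 31, where 30.4% of all tested genes were called. At an unadjusted limma p under 0.05, 5 of the 31 were higher and 1 was lower. Among all 12257 tested genes, 2732 were higher and 2495 lower at that p. No call among the 31 held when any untreated library was left out, or when the filter or the intensity trend was dropped. Each of these left 0 of the 31 called as higher. Leaving out TGFB1 replicate 2 or 3, or median-of-ratios scaling, left 1, and quantile normalization gave 5.

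Of the 7 alpha ring genes tested, 0 were called, and 0 had an unadjusted limma p under 0.05. Their 95% intervals all lay between -0.23 and 0.21. Their summed level was 2241, 2163 and 2174 TPM with TGFB1 against 2275, 2149 and 2219 TPM in untreated cells. Psma7 was the highest alpha gene, at 453 ± 11.2 TPM with TGFB1 and 472 ± 21.8 TPM in untreated cells, and Psma2 the lowest, at 181 ± 8.49 TPM and 173 ± 5.83 TPM in the same order.

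Among structural beta genes, Psmb2 had 237, 199 and 201 TPM with TGFB1, against 178, 174 and 167 TPM in untreated cells. The groups did not overlap, TGFB1 replicate 1 was the highest, and the difference was 0.29 (SE 0.08, limma adjusted p = 0.0347). It was called in 10 of 16 alternatives, and leaving out any untreated library or TGFB1 replicate 3 ended the call (adjusted p up to 0.117). Psmb4, whose precursor takes part in core assembly, had 447, 432 and 444 TPM with TGFB1, against 530.0, 471 and 489.9 TPM in untreated cells. It was lower in every TGFB1 library, but the difference of -0.17 missed the threshold (adjusted p = 0.0710). Psmb1 had 368 ± 3.58 TPM with TGFB1 and 391 ± 9.39 TPM in untreated cells, and Psmb3 had 382 ± 34.3 TPM and 399 ± 28.0 TPM in the same order, neither of them called.

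In the regulatory particle, Psmd1, a large scaffold of the base, had 207, 167 and 165 TPM with TGFB1 against 148, 141 and 143 TPM in untreated cells. TGFB1 replicate 1 was again the highest and the groups did not overlap. The difference was 0.31 (SE 0.09, limma adjusted p = 0.0467), and 0.21 without TGFB1 replicate 1 (adjusted p = 0.0191). It was called in 9 of 16 alternatives and lost without any untreated library or TGFB1 replicate 2 (adjusted p up to 0.126). Psmd2, the other large scaffold, had a difference of 0.15 (adjusted p = 0.0844), and Psmd4, a ubiquitin receptor, had one of 0.10. Of the 6 ATPase genes Psmc1 to Psmc6, 0 were called and 0 had an unadjusted p under 0.05, with intervals between -0.29 and 0.32. Of the 8 lid genes, among them the deubiquitinase Psmd14, 0 were called and 0 had an unadjusted p under 0.05, with intervals between -0.28 and 0.30. The summed lid level was 1381, 1285 and 1297 TPM with TGFB1 against 1318, 1259.7 and 1317 TPM in untreated cells.

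Genes of the same particle differed in level. Mean levels of the 14 core genes spanned 3.17-fold with TGFB1 and 4.14-fold in untreated cells, although the particle holds its subunits in equal number. In untreated cells Psmb4 was the highest at 497 ± 30.2 TPM and Psmb5 the lowest at 120.1 ± 5.94 TPM, with the reads of Psmb5 possibly shared with its copy. Regulatory particle genes spanned 3.07-fold with TGFB1 and 3.08-fold in untreated cells. Psmc1 was the highest of them at 312 ± 18.3 TPM with TGFB1 and 318 ± 13.7 TPM in untreated cells, and Psmc6 the lowest at 102 ± 9.41 TPM and 103 ± 3.13 TPM in the same order.

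**Figure D4:**
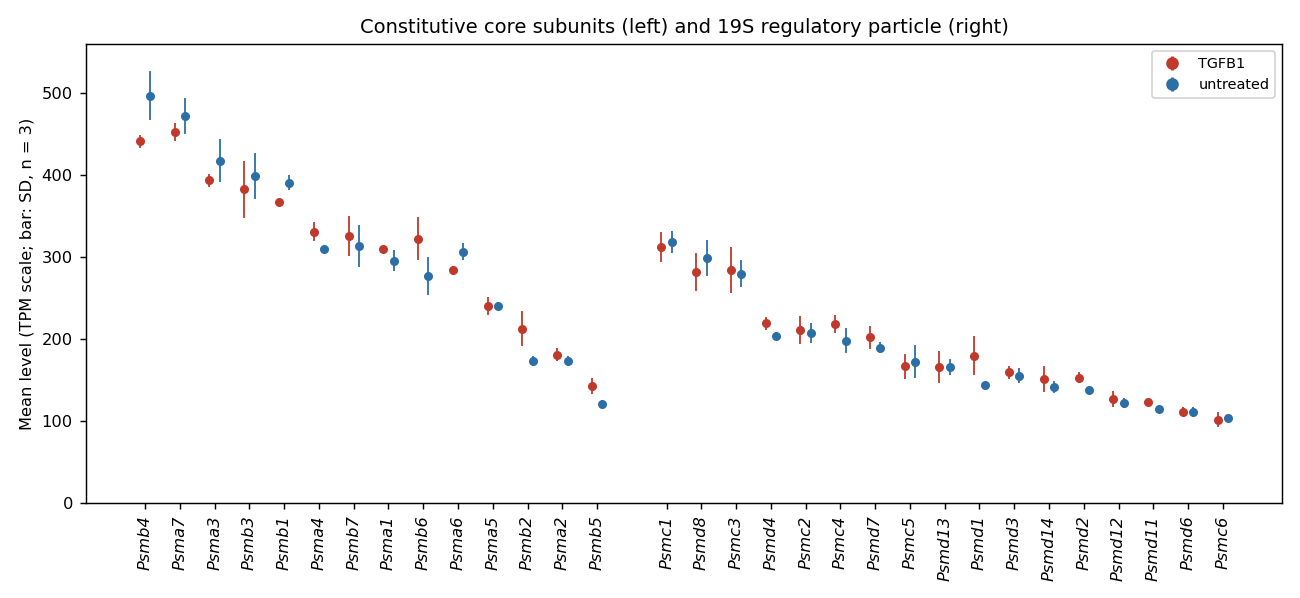
Mean level in TPM with SD (n = 3 each), TGFB1 and untreated, of the 14 constitutive core genes and the 17 regulatory particle genes. Levels span 3.17-fold among core genes with TGFB1 and 4.14-fold in untreated cells, and 3 of the 31 genes were called.

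Of 7 assembly genes, 1 fell and 0 rose, which is 14.3% of the list, where 30.4% of all tested genes were called. At an unadjusted limma p under 0.05, 2 of the 7 were lower, as were 2495 of all 12257 tested genes. Psmg4, a chaperone of alpha ring assembly that works with Psmg3, had 41.9, 44.0 and 44.6 TPM with TGFB1 against 76.6, 60.5 and 64.3 TPM in untreated cells. All TGFB1 libraries were below all untreated ones, and the difference was -0.61 (SE 0.09, limma adjusted p = 0.00490). Its partner Psmg3 had 37.7, 31.4 and 30.8 TPM with TGFB1 against 32.5, 33.9 and 33.0 TPM in untreated cells (difference 0.00, adjusted p = 0.986). Psmg1, of the other chaperone pair, had 20.1, 15.5 and 16.3 TPM with TGFB1 against 22.9, 20.4 and 22.7 TPM in untreated cells. Its groups did not overlap, and the difference of -0.34 missed the threshold (adjusted p = 0.0548). Psmg1 was called as lower without TGFB1 replicate 1 (-0.45, adjusted p = 0.00620) and with median-of-ratios scaling. Its partner Psmg2 had a difference of -0.09 (adjusted p = 0.355). The base chaperones Psmd5, Psmd9 and Psmd10 had differences of 0.06, 0.04 and 0.09, and 0 of the 3 were called. Psmc3ip, a meiotic recombination factor that matches the name pattern and is not a proteasome subunit, had a difference of -0.03.

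Of 10 proteasome genes with other names in the table, 0 were called by limma, and 2 had an unadjusted p under 0.05. The 10 are the lid peptide Sem1, the receptor Adrm1, the core maturation factor Pomp, the deubiquitinases Uchl5 and Usp14, AI314180, Ube3c, Akirin2, Txnl1 and Zfand5. Sem1 had 155, 171 and 176 TPM with TGFB1 against 189, 186 and 191 TPM in untreated cells, lower in every TGFB1 library, with a difference of -0.18 (adjusted p = 0.0783).

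Upstream of the proteasome, 2 of 6 ubiquitin and E1 genes rose and 1 fell. Uba1, the main ubiquitin-activating enzyme, had 266, 243 and 237 TPM with TGFB1, against 199.7, 201.5 and 212 TPM in untreated cells (difference 0.28, limma adjusted p = 0.0179). Uba6, the second ubiquitin-activating enzyme, rose by 0.37 (adjusted p = 0.0370) and the ubiquitin fusion gene Rps27a fell by 0.22 (adjusted p = 0.0274). Among shuttle factors and receptors that bring tagged proteins to the proteasome, Sqstm1 rose by 0.30 (adjusted p = 0.0392), while Ubqln2 fell by 0.21 (adjusted p = 0.0313).

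Of 7 genes for transcription factors of proteasome genes or for the processing of Nfe2l1, 2 rose and 1 fell. Nfe2l1, the factor known to raise proteasome genes when the proteasome is impaired, had 171, 159.6 and 169 TPM with TGFB1 against 154, 135 and 136 TPM in untreated cells (difference 0.23, limma adjusted p = 0.0447). Nfya, a CCAAT-box binding subunit, rose by 0.22 (adjusted p = 0.0327). Nfe2l2, the oxidative stress factor, had 81.9, 115 and 114 TPM with TGFB1 against 137, 144 and 140.5 TPM in untreated cells (difference -0.45, adjusted p = 0.0406). The call on Uba1 was lost without untreated replicate 1 or 2 (adjusted p up to 0.0603), and those on the other named ubiquitin, shuttle and control genes were lost without untreated replicate 3, among other libraries (adjusted p up to 0.148). Of 7 CCT chaperonin genes, another multi-subunit complex taken for comparison, 2 rose (Tcp1 and Cct2) and 0 fell, and both calls were lost without untreated replicate 3. The shares called in these short lists were 50% of the ubiquitin and E1 genes, 42.9% of the transcription and processing genes and 28.6% of the chaperonin genes, where 30.4% of all tested genes were called.

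Of 11 tested genes of class I presentation and interferon gamma signalling, which work with or upstream of the immunoproteasome, 1 rose and 3 fell. That is 36.4% of the list, near the 30.4% called among all tested genes. Tap2, a peptide transporter subunit, had 8.37, 7.46 and 7.32 TPM with TGFB1 against 19.5, 17.2 and 17.4 TPM in untreated cells (difference -1.13, limma adjusted p = 0.000494). Tapbp, which tethers class I molecules to the transporter, had 101, 185 and 191 TPM with TGFB1 against 368, 379 and 329 TPM in untreated cells (difference -1.22, adjusted p = 0.0100). It shares 26.9% of its 31-base words with other genes. Irf1, an interferon-induced transcription factor, had 23.2, 44.2 and 47.4 TPM with TGFB1 against 97.5, 83.1 and 83.9 TPM in untreated cells. All TGFB1 libraries were below all untreated ones for these genes, with TGFB1 replicate 1 the lowest for Tapbp and Irf1. The Irf1 difference was -1.24 (adjusted p = 0.0127), and it lost its call without untreated replicate 1 (adjusted p = 0.0519).

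Tap1, the other transporter subunit, had 5.88, 7.32 and 7.37 TPM with TGFB1 against 7.42, 7.45 and 9.40 TPM in untreated cells (difference -0.21, limma adjusted p = 0.261). B2m, the light chain of class I, had 1098, 1220 and 1199 TPM with TGFB1 against 1033, 1248 and 1187 TPM in untreated cells (difference 0.02). Ifngr1, a receptor chain, rose by 0.28 (adjusted p = 0.0379), a call lost when any library was left out. Of the 13 genes of the list, Irf8 was listed at 0 in every library and Nlrc5 stayed under the filter.

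**Figure D5:**
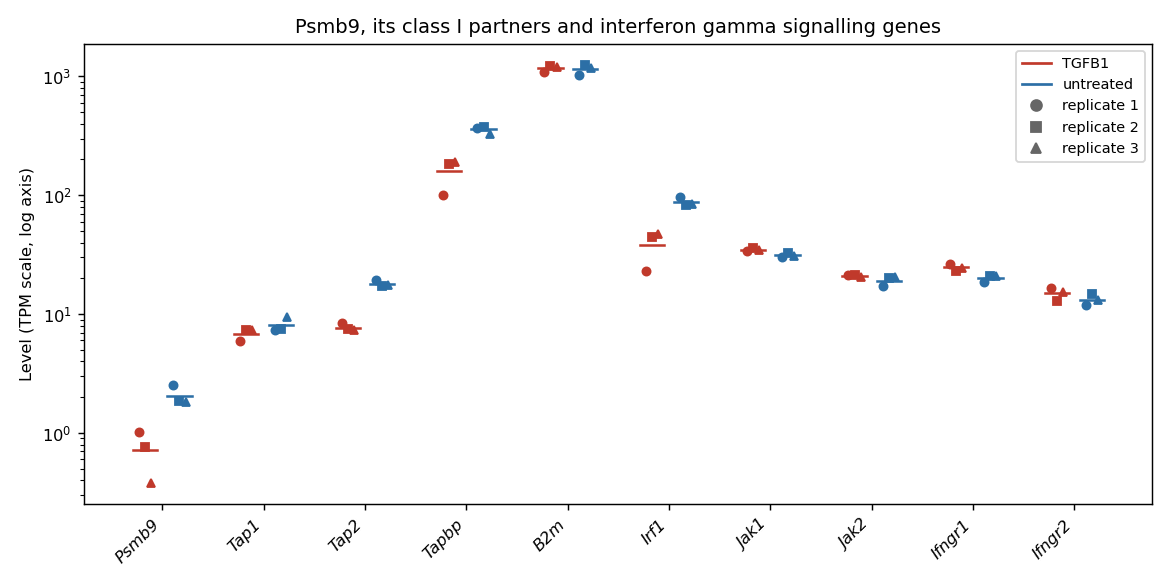
Level in TPM (log axis) by library, TGFB1 left of untreated, of Psmb9 and genes of class I presentation and interferon gamma signalling. Tap2 lies at 7.32 to 8.37 TPM with TGFB1 and 17.2 to 19.5 TPM in untreated cells, while Tap1 lies at 5.88 to 7.37 TPM and 7.42 to 9.40 TPM in the same order.

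Leukocytes express the immunoproteasome strongly, so their markers were read beside these falls. Of 7 leukocyte markers, 1 reached 1 TPM. That was Cd68, a lysosomal protein, at 7.16, 9.73 and 9.49 TPM with TGFB1 against 18.1, 25.9 and 24.1 TPM in untreated cells, and it fell (difference -1.27, limma adjusted p = 0.00260). The summed level of the other 6 was 0.669, 1.05 and 1.17 TPM with TGFB1 against 0.632, 0.920 and 1.01 TPM in untreated cells, with overlapping groups. That sum rests mainly on Itgam, which shares 68.3% of its 31-base words with other genes, the most with Gm49368. Ptprc, the pan-leukocyte marker, was under the filter and not tested. It was lower in every TGFB1 library, at 0.0412 to 0.0483 TPM against 0.0596 to 0.0843 TPM in untreated cells. Tyrobp was listed at 0 in every library. The steroidogenic marker Star also fell, with 78.9, 167 and 182 TPM with TGFB1 against 326, 294 and 279 TPM in untreated cells (limma adjusted p = 0.0279), a call lost when the filter was dropped or any untreated library was left out (adjusted p up to 0.0892). Summed endothelial markers were 1.57 to 1.75 TPM with TGFB1 against 0.961 to 1.21 TPM in untreated cells. Granulosa markers were at 22.5 to 23.6 TPM against 17.8 to 19.8 TPM, and smooth muscle markers at 1.11 to 3.17 TPM against 0.724 to 0.926 TPM. In these lists only Pecam1, Foxl2 and Des reached 1 TPM, in that order, so each sum rests mainly on 1 gene. Under that level, the mean of the granulosa marker Amh was lower with TGFB1 (0.215 against 0.274 TPM). Cyp11a1 (0.551 against 0.304 TPM) and Cyp17a1 (0.0718 against 0.0597 TPM), listed with Star, had higher means, with overlapping groups. The part of these markers in the proteasome results was not tested.

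Psmb9, Tap1, Psmb8 and Tap2 lie next to one another on chromosome 17, in a span of 34335 bases. Psmb9 (chr17:34181987-34187764, minus strand) and Tap1 (chr17:34187553-34197225, plus strand) run away from each other, with 225 bases between their RefSeq start sites, while a longer Psmb9 transcript in GENCODE M21 overlaps Tap1 by 212 bases. Psmb9 was called as lower and Tap1 was not, and whether their changes differ was not tested. Because these genes overlap and the use of strand is not stated, reads could have been shared between them.

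Promoter windows from 250 bases before to 50 bases after the RefSeq start (GRCm38.p6) were searched on both strands. Windows were found for the 42 of 50 members that matched by symbol. Psma8, Psmb1, Psmb2, Psmb7, Psmc3, Psmd3, Psmd7 and Psmg2 had no window and were not searched. The motifs were the cores of the interferon-stimulated response element (GAAA, 2 bases of any kind, GAAA), the gamma-activated site (TTCNNNGAA) and the antioxidant response element (TGACNNNGC), and the CCAAT box (CCAAT). In the member windows, 0 pairs of matches to different motifs overlapped. The interferon-stimulated core was present in 5 of 42 members (11.9%), against 3.99% of all genes. The gamma-activated core was in 7.14% of members and 9.55% of all genes, the antioxidant core in 14.3% and 14.0%, and the CCAAT box in 35.7% and 41.1%.

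The 5 interferon-stimulated matches are shown because 2 of them lie at genes that fell, Psme1 and Psmg4, and 3 at genes that were not called. Sites are 30 bases, read along the gene, with the match in capitals. Counting the start as base 1, it begins at base 10 of Psme1, on the opposite strand (chr14:55578493-55578522), and at base 16 of Psmg4 (chr13:34162969-34162998). In Psmb3 (chr11:97703261-97703290), Psmd4 (chr3:95042675-95042704) and Psmd9 (chr5:123228021-123228050) it lies before the start.
Psme1: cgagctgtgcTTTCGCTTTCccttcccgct
Psmg4: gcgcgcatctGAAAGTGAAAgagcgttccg
Psmb3: cacagtgactTTTCACTTTCcgctttccat
Psmd4: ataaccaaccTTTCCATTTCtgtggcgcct
Psmd9: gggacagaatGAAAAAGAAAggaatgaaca
The window of Psmb9 held a CCAAT box on the opposite strand, 8 bases before the start and between the starts of Psmb9 and Tap1 (chr17:34187321-34187350, minus strand).
Psmb9: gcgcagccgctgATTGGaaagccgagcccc
The windows of Psmb10, Psmb9 and Psme2 held no interferon-stimulated, gamma-activated or antioxidant match, which says only that these letters are not in these windows. The immunoproteasome gene Psmb8, which was under the filter, held a gamma-activated core 97 bases before the start. Psmd2 and Psmg1, which were not called, also held this core, and so did Irf1, which fell.

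The antioxidant core is the kind of site that Nfe2l1 and Nfe2l2 are known to bind. It is shown for the searched constitutive catalytic genes, which both held it near the start. These were Psmb5 (chr14:54618023-54618052, minus strand), which rose, and Psmb6 (chr11:70525338-70525367), which was not called. Psmb7, the other constitutive catalytic gene, had no window and was not searched.
Psmb5: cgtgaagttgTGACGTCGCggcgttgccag
Psmb6: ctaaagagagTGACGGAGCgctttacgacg
Psme4, which rose, also held this core, and so did Psmc6, Psmd9 and Psmd12, which were not called.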

How the data were processed

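Poly(A) RNA libraries of 3 TGFB1-treated and 3 untreated m1102 samples were made with a strand-marking kit, per the labels' protocols. Kallisto 0.44.0, sleuth 0.30.0 and the build GRCm38 are named, without roles, per the submitters' processing notes. The annotation, use of strand and step from transcripts to genes were not given in the sources used here. Gene values that the authors deposited are a table of TPM-scale signal, called TPM here, with unequal totals. Columns were tied to samples by group and replicate number, and 0 columns went unused.

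Values were fitted as log2(TPM + 1) with limma 3.58.1 (lmFit, eBayes with an intensity trend) in R 4.3.3, for genes averaging 1 TPM or more, two-sided, with Benjamini-Hochberg adjustment over all of them and a threshold of 0.05. The fit alone was run on simulated data with independent noise and fewer changed genes than were called here. It was judged on bias and on the share of false calls. Tables and 31-base word sharing were computed in Python 3.11.15 with pandas 2.3.3. Coordinates are from GENCODE M21, and start sites, windows and sequences are from RefSeq (GRCm38.p6).

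Members and lists were chosen with earlier results of these data known. Every member may be named, and of each other list of at most 13 genes every gene. Alternatives changed the pseudocount, filter, scaling, trend, replicate block and repeated rows, or left out a library. Median differences and shares were described, not tested. Some genes of these lists are not reported here.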

Additional observations from a re-analysis of the deposited data

How the results depend on the processing

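Of the 10 called members, 5 were called in all 16 alternatives (Psmb10, Psme1, Psme2, Psmg4 and Psmf1). The count of members called as higher, 5, was 2 with no filter, 3 with median-of-ratios scaling, 8 when rescaled without mitochondrial and abundant genes, 2 without the intensity trend, and 1 to 6 with a library left out, with 1 without untreated replicate 3, 2 without untreated replicate 1 or 2 or TGFB1 replicate 2, 3 without TGFB1 replicate 3 and 6 without TGFB1 replicate 1. The count called as lower, 5, was 4 to 6 with a library left out. The median difference of the members was -0.03 to 0.05 with a library left out, and the inducible share differed by -11.4 to -10.4 points. The cause was not tested. Of all called genes, 52.0% were higher, against 62.7% when rescaled without mitochondrial and abundant genes. Whether the replicate numbers pair the libraries was not settled. Correlations of deviations between libraries of the same number were 0.20, 0.15 and -0.04, and some libraries but not all correlated best with their own number. With the replicate block 7 members were higher and 6 lower. Repeated rows were removed as an alternative chosen after seeing the data. Depth is unknown, so the precision of Psmb8, Psmb9 and Psmb11 cannot be computed.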
